A study of Saccharomyces cerevisiae with 2 samples.

Results

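The 36 genes that encode the aminoacyl-tRNA synthetases of *Saccharomyces cerevisiae* were followed in 2 transcriptomes. They were picked by name from the deposited gene tables of both strains, and all 36 were found by their symbol in each, among 5577 genes listed in both. Poly(A) RNA of the strains BYZ1 and ZK2 was taken in early stationary phase from 25 mL YPD cultures inoculated at an OD600 of 0.05 and sequenced on an Illumina HiSeq instrument, with 1 library per strain. BYZ1 is a laboratory diploid (MATa/MATalpha) of S288c descent that is his3delta1/his3delta1, leu2delta0/leu2delta0 and ura3delta0/ura3delta0 and heterozygous for lys2delta0 and met15delta0. ZK2 is labelled as a strain for bioethanol, with no genotype or ploidy given, and the study's paper does not describe it. The medium also differs by the labels, with yeast extract, peptone and glucose at 1, 2 and 2 g/L for BYZ1 and at 10, 20 and 20 g/L for ZK2, although the paper's YPD has the latter composition. Strain, medium and library therefore cannot be told apart in any comparison below.

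Each synthetase joins 1 amino acid to the tRNAs that read its codons, and so sets the accuracy of translation before the ribosome is reached. A yeast cell needs this reaction in the cytosol and again in mitochondria, where a small set of respiratory proteins is made. For many amino acids a separate nuclear gene encodes the mitochondrial enzyme. For others 1 gene supplies both compartments, in several cases through alternative start codons that add or omit a mitochondrial targeting sequence. The 36 genes serve 20 amino acids and were grouped as 17 cytosolic, 14 mitochondrial and 5 dual. The dual genes are *ALA1* (alanine), *GRS1* (glycine), *HTS1* (histidine), *VAS1* (valine) and YNL247W (cysteine, also called *CRS1*). Glutamine has only the cytosolic *GLN4*, since mitochondrial Gln-tRNA is made by amidation of Glu-tRNA.

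The libraries were of nearly equal depth, with 4.69 M uniquely mapped gene reads for BYZ1 and 4.57 M for ZK2. Expression is given as RPKM, the reads of a gene scaled to its coding length and to the gene reads of its library, with a median over genes of 37.2 (BYZ1) and 33.9 (ZK2). The labels were checked by the genes deleted in BYZ1. *URA3* and *LEU2* had 0 and 1 reads in BYZ1 against 123 and 360 in ZK2. *HIS3*, also changed on both homologs, had 156 and 159 reads, which covered 67.4% of its coding length in BYZ1 and 98.9% in ZK2, so its count does not tell the strains apart. Of the genes deleted on 1 homolog, *LYS2* had 451 and 993 reads, and *MET17* (*MET15*) went the other way with 145 in BYZ1 and 43 in ZK2. A single library per strain leaves no replicate spread, so differences between the strains were not tested. Values in brackets are exact 95% intervals of the reads (Poisson for a level, binomial for a ratio), which cover counting error only, since PCR copies cannot be told from separate molecules. RPKM is a share of a library, so fewer cells of a kind and less RNA per cell cannot be told apart. No synthetase gene overlapped another listed gene. None of their 49-base windows, the read length of the BYZ1 library, matched another gene of the S288c reference R64 with up to 2 mismatches. The sequence and read length of ZK2 are not given in the sources used here. How differences of ZK2 from the reference affect its reads was therefore not tested.

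The classes stood at very different levels. The median cytosolic gene was YHR020W in BYZ1, at an RPKM of 63.0, and *FRS1* in ZK2, at 99.2. Dual genes had medians of 67.8 and 63.9. For mitochondrial genes they were 12.8 and 10.5. The cytosolic median was thus 4.94 times the mitochondrial one in BYZ1 and 9.43 times in ZK2. By geometric means, which weigh every gene, this difference between the strains was not seen. The cytosolic level was then 85.2 in BYZ1 and 84.0 in ZK2 and the mitochondrial one 11.41 and 11.43, with ratios of 7.47 and 7.35. All 14 mitochondrial genes were below the median gene of the library in both strains, whereas 15 of 17 cytosolic and 5 of 5 dual genes were above it in BYZ1, and 14 and 4 in ZK2. The highest mitochondrial level was 17.98 in BYZ1 (*DIA4*) and 20.1 in ZK2 (*MSD1*). In each strain 16 of the 17 cytosolic and all 5 dual genes exceeded it. The exception was *MES1* in BYZ1 and *GRS2* in ZK2. Together the 36 genes took 0.527% of all gene reads in BYZ1 and 0.499% in ZK2.

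**Figure D1:**
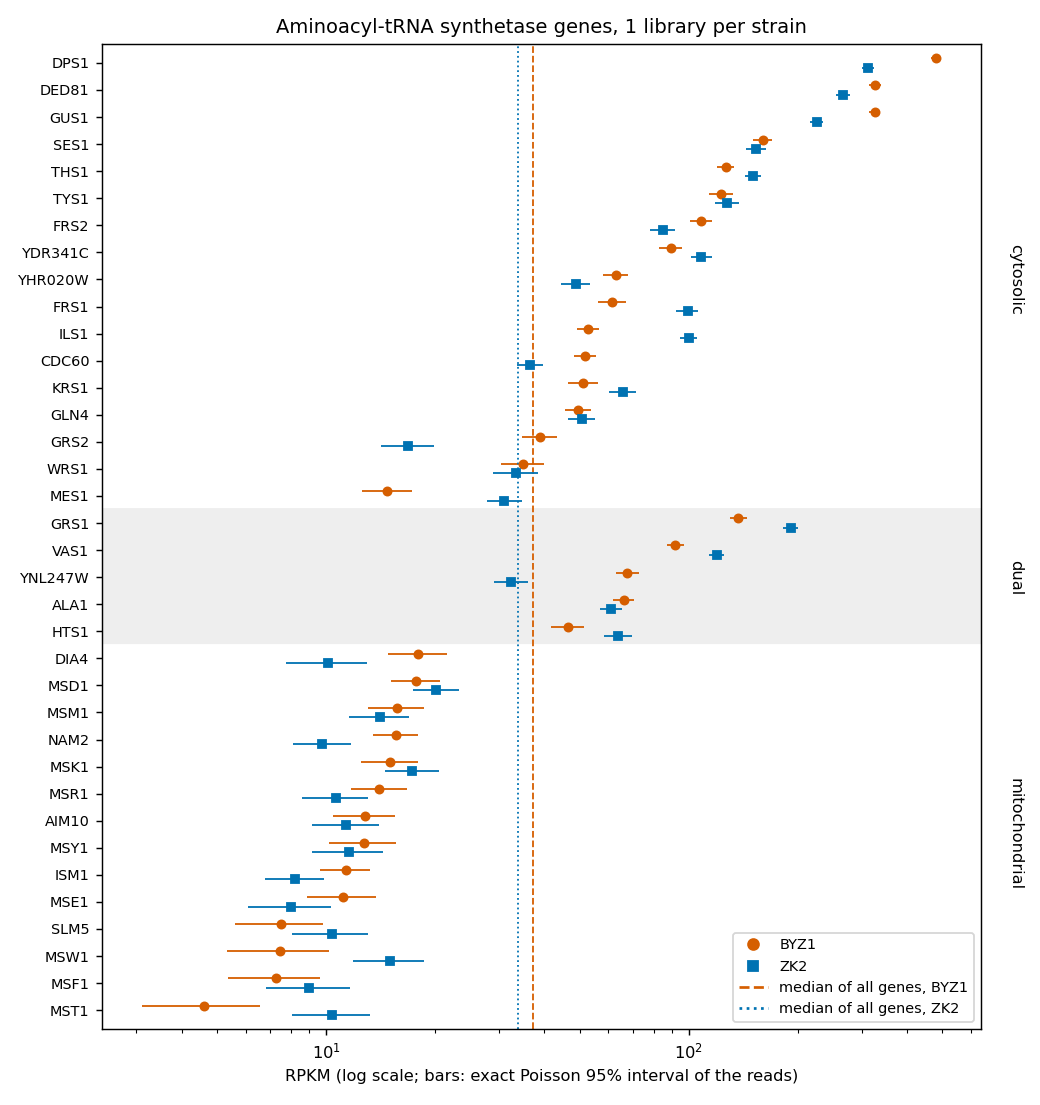
RPKM of the 36 synthetase genes on a log axis, with 1 point per strain (BYZ1 circles, ZK2 squares), bars for the exact Poisson 95% interval and vertical lines at the median of all genes in each library. The 14 mitochondrial genes lie between 4.61 and 20.1, left of both medians, and the 3 highest cytosolic genes lie between 225 and 482.

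Among the cytosolic genes, those for the acidic amino acids and asparagine dominated. *DPS1*, the aspartyl-tRNA synthetase gene, had the highest level in both strains, with 3779 reads in BYZ1 (RPKM 482, 466 to 497) and 2390 in ZK2 (312, 300 to 325). *DED81* (asparagine) was at 326 in BYZ1 and 266 in ZK2, and *GUS1* (glutamate) at 326 and 225. These 3 genes held 38.7% of the synthetase reads in BYZ1 and 28.9% in ZK2, and each was lower in ZK2. A middle group comprised *SES1* for serine (160 in BYZ1, 153 in ZK2), *THS1* for threonine (126, 150) and *TYS1* for tyrosine (123, 127). The levels of *SES1* and *TYS1* differed between strains by less than their counting intervals. YDR341C (arginine) followed at 89.2 and 108, and YHR020W (proline) at 63.0 and 48.8. Next came *CDC60* for leucine (51.9, 36.6), *KRS1* for lysine (51.2, 65.8) and *GLN4* for glutamine (49.6, 50.7). *WRS1*, for tryptophan, was at 35.0 and 33.3, close to the median gene of each library. The order of the cytosolic genes was much the same in the strains (Spearman's rho 0.93 over 17 genes, a description across genes that share both libraries).

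The mitochondrial genes spanned a narrow range, from 4.61 to 17.98 in BYZ1 and from 8.01 to 20.1 in ZK2. In BYZ1 the highest were *DIA4* for serine (17.98, 14.8 to 21.6), *MSD1* for aspartate (17.7) and *MSM1* for methionine (15.7). *NAM2*, the leucyl enzyme that also acts in splicing of mitochondrial introns, was at 15.6, *MSK1* (lysine) at 15.04 and *MSR1* (arginine) at 14.02. *AIM10* (proline), *MSY1* (tyrosine), *ISM1* (isoleucine) and *MSE1* (glutamate) lay between 11.1 and 12.8. The lowest 4 were *SLM5* (asparagine) and *MSW1* (tryptophan), at 7.501 and 7.49, *MSF1* (phenylalanine) at 7.26 and *MST1* (threonine) at 4.61 (3.11 to 6.58). Most neighbors in this order overlapped in their intervals, as the genes had 30 to 196 reads each. In ZK2 the highest were *MSD1* (20.1), *MSK1* (17.3) and *MSW1* (14.97), and the lowest were *MSE1* (8.01) and *ISM1* (8.22). The order was kept less than among cytosolic genes (Spearman's rho 0.33 over 14 genes), over a range of levels of 3.90-fold in BYZ1 and 2.51-fold in ZK2 against 32.6-fold and 18.5-fold among cytosolic genes.

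Whether the cytosolic gene exceeded its mitochondrial counterpart was asked for the 14 amino acids that have both, in 15 pairs because the cytosolic phenylalanyl enzyme has a pair of subunits. The cytosolic gene was higher per length in 14 of 15 pairs in BYZ1 and in all 15 in ZK2, with median ratios of 8.48 and 11.0. The largest ratio in BYZ1 was that of asparagine, *DED81* over *SLM5*, at 43.5 (33.03 to 58.3), and in ZK2 that of glutamate, *GUS1* over *MSE1*, at 28.1 (21.7 to 37.1). Leucine and lysine had small and nearly equal ratios in the strains, from 3.33 to 3.80.

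Methionine stood apart. *MES1*, the cytosolic methionyl enzyme that charges initiator and elongator tRNA, had 156 reads in BYZ1, a level of 14.8 (12.5 to 17.3), while mitochondrial *MSM1* was at 15.7 (13.1 to 18.7). Their ratio of 0.941 (0.740 to 1.199) was the only one whose interval reached 1 in either strain. In raw reads, not divided by length, it was 1.23. In ZK2 *MES1* had 320 reads (31.0, 27.7 to 34.6), and the ratio was 2.21 (1.77 to 2.77), or 2.35 times that in BYZ1 (1.68 to 3.27). Isoleucine moved the same way, with *ILS1* over *ISM1* at 4.65 (3.92 to 5.55) in BYZ1 and at 12.2 (10.0 to 14.9) in ZK2. Tryptophan and threonine moved the other way. *WRS1* over *MSW1* was 4.67 in BYZ1 and 2.23 in ZK2, and *THS1* over *MST1* was 27.4 and 14.5. Between the strains the pair ratio was higher in ZK2 beyond counting error in 4 pairs, lower in 5 and within it in 6.

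**Figure D2:**
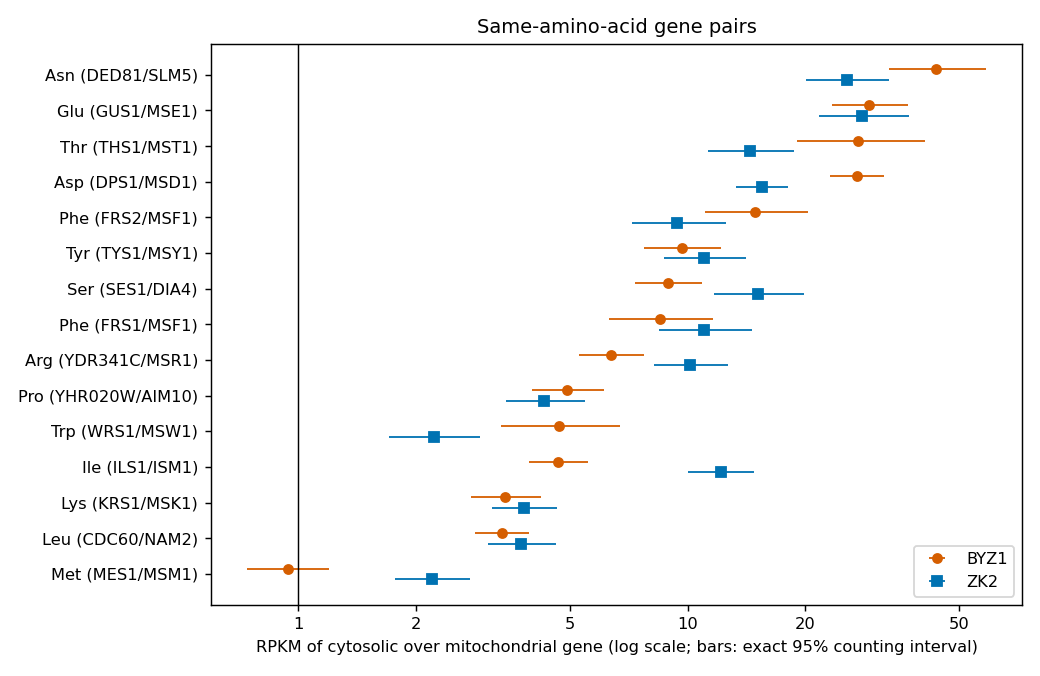
Ratio of the RPKM of each cytosolic gene to that of the mitochondrial gene for the same amino acid, on a log axis, in BYZ1 (circles) and ZK2 (squares), with exact 95% counting intervals. Methionine in BYZ1 is the one point left of 1, at 0.941, and the isoleucine and tryptophan pairs separate in opposite directions between the strains.

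For the comparison of ZK2 with BYZ1 the log2 ratio of RPKM plus a pseudocount of 1 was taken for the 5080 genes that reached an RPKM of 10 in either library. A gene was called where this ratio was at least 1 above or below 0. A pseudocount understates changes of low genes. The median of all genes was -0.17, and that of the 36 synthetase genes was -0.07. Their middle 50% spanned 0.74 on the log2 scale, against 0.94 for all genes. Called were 2 synthetase genes as higher, *MES1* and *MST1*, and 2 as lower, YNL247W and *GRS2*. Of all genes tested 7.91% were called higher and 10.3% lower, so neither count exceeded the background. With TMM factors, which move the median of all genes up by 0.17 to near 0, 534 genes were called higher and 345 lower in place of 402 and 524. On that scale *ILS1* and *MSW1* joined the genes called higher, and no member was called lower. *MSF1* was under 10 in both libraries and was not tested. *SLM5*, *MSW1* and *MST1* passed only through ZK2, where they are higher, and *MSE1*, *ISM1* and *NAM2* only through BYZ1. By the interval of the plain RPKM ratio, 11 of the 36 genes were higher in ZK2 beyond counting error, 12 were lower and 13 were neither. On the TMM scale these counts were 16, 10 and 10. How many of all genes pass the same interval rule was not counted, so these counts are no result about the synthetases.

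By class the log2 ratios centered at -0.06 for the cytosolic, -0.14 for the mitochondrial and 0.37 for the dual genes, and the ranges overlapped throughout. With TMM factors the cytosolic median turned to 0.11, that of the 13 mitochondrial genes tested to 0.02, and the dual one was 0.55. Summed reads as a share of each library were lower in ZK2 for the cytosolic class (ratio 0.902, 0.883 to 0.921), carried by *DPS1*, *DED81* and *GUS1*. The dual class was higher (1.13, 1.09 to 1.18), and the mitochondrial one did not differ beyond counting error (0.929, 0.861 to 1.001). These directions depend on the scale for all but the dual class. Without TMM factors the dual direction depends on the class of *GUS1*, counted here as cytosolic. *GUS1* had 3248 reads in BYZ1 and 2191 in ZK2, beside 4699 and 5185 for the dual genes together. With TMM factors the summed ratios were 1.02 for cytosolic (0.998 to 1.04), 1.05 for mitochondrial (0.973 to 1.13) and 1.28 for dual genes (1.23 to 1.33).

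**Figure D3:**
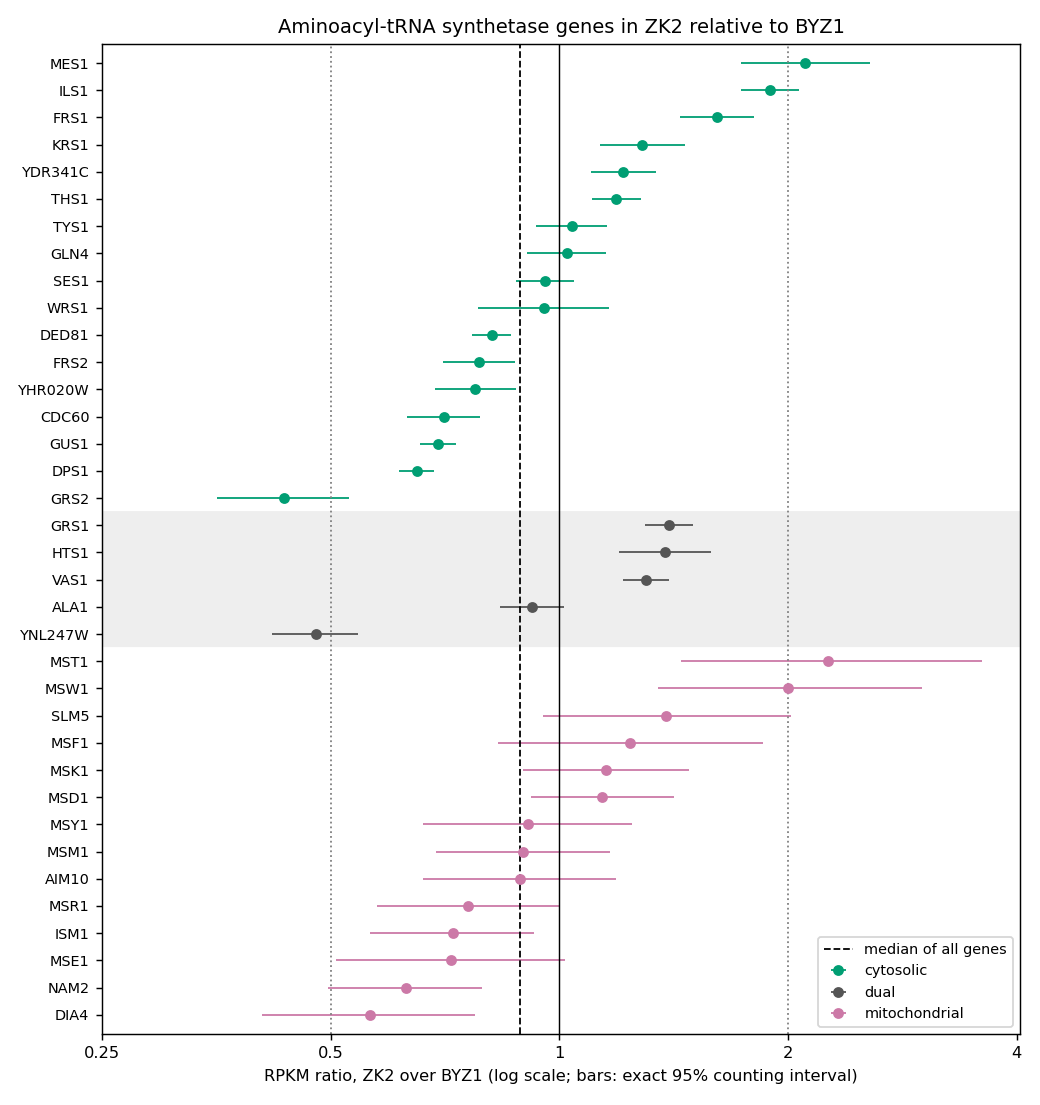
RPKM ratio of ZK2 to BYZ1 for each synthetase gene on a log axis, sorted within class, with exact 95% counting intervals, a dashed line at the median of all genes and dotted lines at ratios of 0.5 and 2. Cytosolic genes run from *GRS2* at 0.434 to *MES1* at 2.10, and intervals of the mitochondrial genes are the widest.

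Of the genes that were higher in ZK2, *MES1* lies on the minus strand of chromosome 7 from 1019604 to 1021859 (coordinates of the BYZ1 table, sacCer2) and had a ratio of 2.10 (1.73 to 2.56). Its coding length was covered by reads to 78.1% in BYZ1 and 97.9% in ZK2. *ILS1*, the cytosolic isoleucyl gene on chromosome 2 from 81041 to 84259, had 796 and 1470 reads and a ratio of 1.89 (1.74 to 2.07). This was the highest ratio of any synthetase gene above the median level in both strains, and with a log2 ratio of 0.91 it lay just under the threshold. *KRS1*, YDR341C and *THS1* had smaller ratios of 1.29, 1.21 and 1.19, all with intervals above 1. In mitochondria, *MST1* had 30 reads in BYZ1 and 66 in ZK2 (2.26, 1.44 to 3.60), and *MSW1* had 40 and 78 (2.00, 1.35 to 3.005). Both were among the lowest genes of BYZ1, and both stayed below the median gene in ZK2.

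Among genes lower in ZK2, YNL247W had the lowest ratio of the dual class. This gene, the only one for cysteinyl-tRNA synthesis among the 36, is on chromosome 14 (182876 to 185179, plus strand) and had 732 reads in BYZ1 (RPKM 67.8) and 341 in ZK2 (32.4), a ratio of 0.478 (0.419 to 0.544). Reads covered 97.1% and 98.4% of its coding length. The other dual genes did not share this: *HTS1* (46.4 in BYZ1, 63.9 in ZK2) and *VAS1* (91.9, 119) had ratios of 1.38 and 1.30, and *ALA1* (66.3, 61.1) one of 0.921 (0.836 to 1.01). Of the cytosolic genes, *DPS1*, *GUS1* and *CDC60* had ratios from 0.648 to 0.705, and *DED81* and YHR020W of 0.815 and 0.775. The last 2 are divergent neighbors on chromosome 8 whose coding sequences are 437 bp apart, and the ratio of one to the other was 5.18 in BYZ1 and 5.44 in ZK2. Of the mitochondrial genes, *DIA4* (113 and 62 reads, 0.563) and *NAM2* (196 and 120 reads, 0.628) were lowest, followed by *ISM1* (0.724, 0.564 to 0.927) and *MSR1* (0.759, 0.575 to 0.999). *MSE1* was at 0.720 with an interval of 0.507 to 1.017. *MSM1*, *AIM10*, *MSY1*, *MSD1*, *MSK1*, *MSF1* and *SLM5* had ratios from 0.887 to 1.38, all with intervals that hold 1.

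Glycine is the amino acid with duplicated genes. *GRS1* encodes the enzyme in use during normal growth, for both compartments, and *GRS2* is its paralog from the whole-genome duplication. The 2 coding sequences are 64.9% identical over 1843 aligned bases in R64. No 49-base window of either matched the other there, so reads of S288c sequence can be told apart. *GRS1* (minus strand of chromosome 2, 481358 to 483361) had 1288 reads in BYZ1 (137, 130 to 145) and 1752 in ZK2 (191, 182 to 200). *GRS2* (minus strand of chromosome 16, 702112 to 703968) had 338 reads in BYZ1 (38.8, 34.8 to 43.2) and 143 in ZK2 (16.8, 14.2 to 19.8). The paralogs therefore differed in opposite directions, with ratios of ZK2 to BYZ1 of 1.40 (1.30 to 1.49997) and 0.434 (0.354 to 0.529). *GRS1* exceeded *GRS2* 3.53 times in BYZ1 (3.13 to 3.99) and 11.4 times in ZK2 (9.57 to 13.6), a change of 3.22 times (2.60 to 3.99) that does not depend on the scale between libraries. *GRS2* covered 98.2% of its coding length in BYZ1 and 96.7% in ZK2.

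Opposite differences were also seen inside enzymes and complexes whose parts work together. The cytosolic phenylalanyl-tRNA synthetase is built from an alpha subunit, *FRS2*, and a beta subunit, *FRS1*. *FRS2* was at 108 in BYZ1 and 84.8 in ZK2, while *FRS1* was at 61.6 and 99.2. The alpha gene was thus 1.76 times the beta gene in BYZ1 (1.57 to 1.97) and 0.855 times in ZK2 (0.767 to 0.951), and their order was exchanged. *GUS1* and *MES1* encode enzymes that bind the cofactor Arc1 in a cytosolic complex. *GUS1* was 22.1 times *MES1* in BYZ1 (18.8 to 26.1) and 7.26 times in ZK2 (6.46 to 8.19). *ARC1* itself, named after its values were seen, was at 342 in BYZ1 and 254 in ZK2, near *GUS1* in level and in ratio (0.742, 0.691 to 0.797).

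The synthetases also fall into catalytic classes with unrelated active-site folds, class I and class II. Cytosolic genes of class II had a median of 108 in BYZ1 and 99.2 in ZK2 (9 genes), and those of class I of 52.3 and 75.3 (8 genes). In the mitochondrial set the log2 ratio was above 0 for 1 of 7 class I genes and for 5 of 7 class II genes. On the TMM scale the counts were 3 and 6. Among cytosolic genes the counts leaned the other way, with 5 of 8 in class I and 3 of 9 in class II. With TMM factors these were 6 and 4. With so few genes they are a description.

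BYZ1 cannot make histidine, leucine or uracil and carries a single functional copy of *LYS2* and *MET15*. The synthetase genes of the amino acids concerned did not share a direction. The ratios of ZK2 to BYZ1 were 1.38 (1.197 to 1.58) for *HTS1*, 0.705 (0.631 to 0.787) for *CDC60*, 1.29 (1.13 to 1.46) for *KRS1* and 2.10 for *MES1*. The mitochondrial genes *NAM2*, *MSK1* and *MSM1* were at 0.628 (0.496 to 0.792), 1.15 (0.896 to 1.48) and 0.896 (0.688 to 1.17). The part of these deletions in any of them was not tested.

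Several synthetase genes are known targets of Gcn4, the activator of amino acid synthesis genes, so the 300 bases before the start codon of each gene were searched in R64. The motif searched was TGACTC on either strand, the core that Gcn4 binds. It was found for 10 of the 36 genes (27.8%), against 7.76% of 6007 nuclear protein-coding genes. By class this was 6 of 17 cytosolic, 3 of 5 dual and 1 of 14 mitochondrial genes. The sites of 7 windows are printed because they cover genes that were higher in ZK2 (*ILS1*, *KRS1*, *THS1*, *VAS1*) and genes that were not (*ALA1*, YNL247W, *DED81* with YHR020W). Each is read 5′ to 3′ on the strand of the gene, with the motif or its reverse complement in capitals.
ILS1, chr2:84346-84375: tcgaaacaatgaTGACTCttaagcatgaaa
KRS1, chr4:525294-525323: tgaatgatgaaaTGACTCttaatgaacttc
THS1, chr9:212283-212312: ttactgtttaaaTGACTCttaccttgtgat
VAS1, chr7:672076-672105: atttttttagaaGAGTCAcccatacagcct
ALA1, chr15:949139-949168: gattaaggaactTGACTCtttctttcaaga
YNL247W, chr14:182777-182806: tttcatcgcgaaGAGTCAaaagacattatc
DED81, chr8:143802-143831: caagacattcagTGACTCaagcatcgctta
The windows of *ILS1*, *KRS1*, VAS1 and YNL247W put the motif 102, 134, 98 and 86 bases before the start codon, where that of *THS1* was at 204. The window of *DED81* is also the one found for YHR020W, on the other strand, since the genes share this intergenic region. The remaining matches were those of YDR341C and *MSW1*. The 10 genes had log2 ratios from -1.04 (YNL247W) to 0.91 (*MSW1* and *ILS1*), with a median of 0.26, against -0.10 for the other 26. The classes did not share this. Medians with and without the motif were 0.26 and -0.07 for cytosolic genes, but -0.12 and 0.46 for dual genes. Of the 4 called genes only YNL247W had a match in this window, and *MES1*, *MST1* and *GRS2* had none. *GCN4*, named after its values were seen, was at 1965 in BYZ1 and 3533 in ZK2, a ratio of 1.80 (1.75 to 1.85). A match is a sequence feature of R64 only. Neither binding nor Gcn4 protein was measured, and the promoters of ZK2 were not examined. AGGGG, the element of the stress factors Msn2 and Msn4, was present on either strand for 5 of the 36 genes (13.9%, against 22.2% of all genes). It was found for 4 of 14 mitochondrial genes (28.6%, near the share of all genes) and for 1 of 17 cytosolic genes. CGGGTAA, the site of the general factor Reb1, was present for 4 (11.1%, against 7.89%).

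Other genes of aminoacylation and translation were set beside the synthetases. Of 6 partner genes, 5 passed the filter and none was called, with a median log2 ratio of -0.43. Of the subunits of the mitochondrial Glu-tRNA amidotransferase, named after their values were seen, *GTF1* was at 188 in BYZ1 and 101 in ZK2 and *PET112* at 16.7 and 9.28. The other subunit gene, *HER2*, was at 6.27 and 7.84, within counting error (ratio 1.25, 0.811 to 1.94). Of 21 cytosolic translation factor genes, 20 passed, and 7 were called higher and 1 lower, beside 7.91% and 10.3% of all genes tested. The median was 0.56, against -0.06 for the cytosolic synthetases. *YEF3*, elongation factor 3, was at 124 in BYZ1 and 903 in ZK2 (log2 ratio 2.85), while its paralog *HEF3* was at 436 and 158 (-1.45). *HYP2* (eIF5A) had a log2 ratio of 1.72 and *TEF4* (eEF1B gamma) of 1.23. The others called higher were *EFT1* (2.44), *TIF2* (1.42), *TEF1* (1.36) and *TIF1* (1.11), each of which has a near-identical copy, so the split of reads within these pairs is uncertain. Reads covered only 7.04% (*TEF2*, ZK2) to 29.55% (*TIF2*, ZK2) of the coding length of the genes in these pairs. Those genes, with *TEF2* and *EFT2*, enter the count and the median of the list, so its contrast with the synthetases is uncertain too. Shared windows were not searched for in these other genes. Of 8 mitochondrial translation factor genes 6 passed and none was called (median 0.10), and of 10 genes of general amino acid control all passed and none was called (0.19). The elongation factor 3 paralogs differed in opposite directions, as the glycyl pair did. Not every pair did so, since *TIF1* and *TIF2* were both called higher, with the uncertainty given above.

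**Figure D4:**
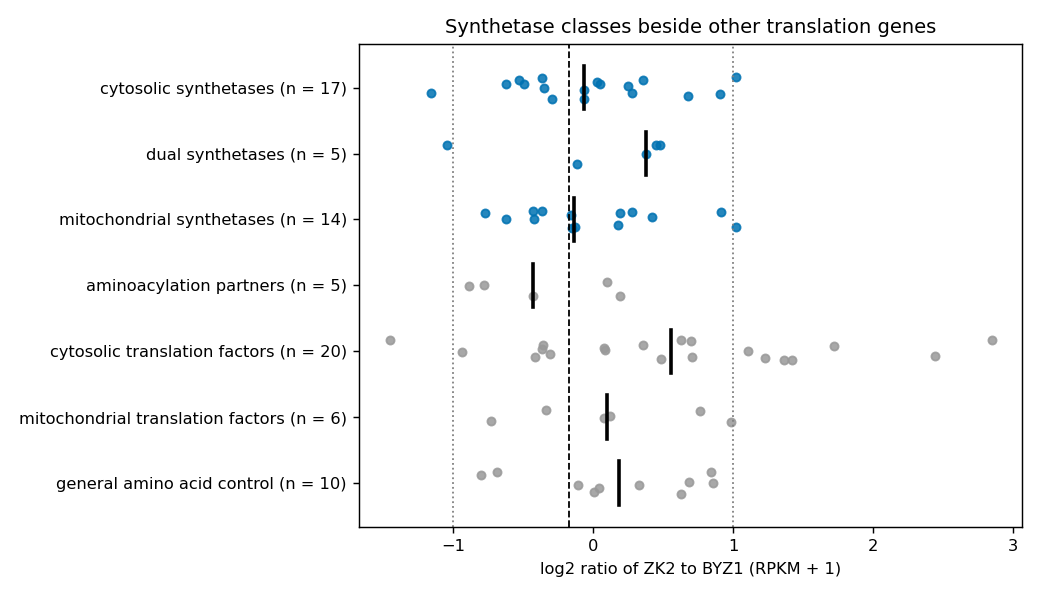
Log2 ratio of ZK2 to BYZ1 for single genes (points) of the synthetase classes (blue) and of 4 other gene lists (grey), with a black bar at each median, a dashed line at the median of all genes and dotted lines at -1 and 1. All 36 synthetase genes are drawn, and of the other lists the genes that passed the filter. Cytosolic translation factors reach 2.85, while the synthetases stay between -1.16 and 1.02.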

How the data were processed

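The authors removed reads with adapters or of low quality, aligned the remainder to genes with SOAPAligner (version not given in the sources used here) and deposited uniquely mapped read counts, RPKM and percent coverage per gene. This is stated for BYZ1, whose RNA came from 3 cultures, while for ZK2 these steps are not stated. RPKM was recomputed from the counts and equaled the deposited values. Gene positions are those of the BYZ1 table, and sacCer2 is the build in the submitters' processing notes. Sequences are from R64 by its own annotation (RefSeq), in which all 36 genes matched with equal length. The members, gene lists and tests were chosen with earlier results of these data known. All 36 members and called genes of the lists are named. Each strain has 1 library, so levels have exact Poisson and ratios exact conditional binomial 95% intervals, and no p-value is given. Alternatives were other scales, pseudocounts, filters, thresholds and class assignments. On simulated data 179 of 180 changed genes and 13 of 4793 unchanged genes were called, and 95.9% of 5687 intervals held the true ratio. These rates say nothing about spread between cultures or libraries, which 1 library per strain cannot give. Python 3.11.15, scipy 1.17.1 and edgeR 4.0.16 (TMM only) were used.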

Additional observations from a re-analysis of the deposited data

How the results depend on the processing

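With 1 library per strain, counting intervals are the only error available, and mitochondrial genes with under 100 reads were limited by depth. The part of strain, medium and library in any difference was not tested. Class levels moved with the choice of members and summary. Without *GRS2* the cytosolic median RPKM in BYZ1 was 76.1. With *GUS1* as dual, the ZK2 cytosolic median was 92.0, and the dual medians were 79.8 in BYZ1 and 91.7 in ZK2. With YNL247W as cytosolic these were 92.0, 79.1 and 91.7. Geometric means were 85.2 (BYZ1) and 84.0 (ZK2) for cytosolic, 76.6 and 78.0 for dual and 38.4 and 38.3 for all members. Median log2 ratios of ZK2 to BYZ1 with TMM factors were 0.10 for all members, 0.11 for cytosolic and 0.55 for dual genes, and with the median of gene ratios 0.11, 0.11 and 0.55. With *GUS1* as dual the dual median was 0.13. Members called higher numbered 4 with TMM factors and 4 with the median of gene ratios, 0 at a pseudocount of 5, 0 with an RPKM filter of 50 and 5 at a threshold of 0.5. Members called lower numbered 0, 0, 1, 1 and 6 in the same order. Of all genes tested, the shares called higher were 10.5%, 10.5%, 6.54%, 11.0% and 18.6% in that order. The shares called lower were 6.79%, 6.71%, 7.20%, 10.6% and 30.7%. On the TMM scale, added after seeing the data for these values, the summed read ratio of all members turned from 0.947 to 1.07, and those of the classes were 1.02 (cytosolic), 1.05 (mitochondrial) and 1.28 (dual). The difference in median between mitochondrial and cytosolic genes, -0.08, lay between -0.13 and -0.06 under every alternative run for it. The counting error of a median over genes or pairs was not computed. In raw reads the median pair ratio was 7.75 in BYZ1 and 10.1 in ZK2, in place of 8.48 and 11.0. Of 15 single pairs, 5 in BYZ1 (aspartate, glutamate, leucine, methionine, threonine) and 4 in ZK2 left their interval. Methionine in BYZ1 turned to 1.23, so that 15 pairs were above 1. Of 180 single-gene values under other scales and pseudocounts, 150 stayed within their counting interval, 30 moved and 0 changed sign after being called.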
